A study of Mus musculus with 2 samples.

Results

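Droplets that held RNA of a T cell and of a macrophage at once were described in the single-cell RNA sequencing of MC38 tumors. The droplets were chosen by raw counts of unique molecular identifiers (UMIs), the tags that mark single captured RNA molecules. A member had at least 5 UMIs summed over C1qa, C1qb and C1qc, here called the C1q gate, and at least 2 UMIs summed over Cd3e, Cd3d, Cd3g and Trac, the T cell gate. This rule selected 244 of 25402 droplets kept by a filter of 500 or more genes, 1000 or more UMIs and no more than 15% of UMIs from mitochondrial genes. Of these, 102 came from the 13542 droplets of the Lmo7+/+ library and 142 from the 11860 droplets of the Lmo7-/- library. MC38 is a mouse colon cancer line, implanted under the skin of female C57BL/6 mice of 6 to 8 weeks that were either wild type (Lmo7+/+) or carried a global deletion of Lmo7 (Lmo7-/-). The implanted tumor cells themselves came from the same MC38 line in both hosts, and Lmo7 was deleted in the host only. Live cells were sorted from the tumors, and each genotype gave 1 library. The number of mice behind each library is not named in the sources used here, so values describe these 2 libraries, no test between genotypes was possible, and intervals are 95% intervals for counting error only.

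C1qa, C1qb and C1qc encode the chains of complement component C1q, which tissue macrophages make in quantity. Cd3e, Cd3d and Cd3g encode signalling chains of the T cell receptor complex, and Trac encodes the constant region of the receptor's alpha chain. A droplet can carry RNA of both cell types because 2 separate cells entered it or because the cells were attached to each other, as they are when a T cell engages a macrophage that presents antigen, and a macrophage can also take up another cell. This list of origins is not complete, and the origins were not told apart from the UMI counts.

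In the mm10 genome, with gene positions from GENCODE M21, the C1q genes are neighbours on the minus strand of chromosome 4, C1qa at chr4:136895917-136898803, C1qc at chr4:136889804-136893065 and C1qb at chr4:136880129-136886187. The CD3 genes are neighbours on chromosome 9, Cd3g at chr9:44969572-44980431 and Cd3e at chr9:44998740-45009627 on the minus strand, with Cd3d at chr9:44981786-44987339 on the plus strand between them. Trac lies on the plus strand of chromosome 14 at chr14:54220521-54224206.

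The deleted gene was at a low level in these droplets. Lmo7 had 2 UMIs in the Lmo7+/+ droplets past both gates, or 2.56 CPM (its count divided by the summed UMIs and scaled to 1000000, interval 0.310 to 9.24), and 6 UMIs in the library labelled Lmo7-/-, or 5.63 CPM (2.06 to 12.2). In macrophage-only droplets, which passed the C1q gate with 0 UMIs of the T cell gate genes, Lmo7 stood at 3.85 CPM (3.16 to 4.64) and 3.34 CPM (2.68 to 4.10). The log2 ratio of the library labelled Lmo7-/- to Lmo7+/+ was -0.21 (-0.62 to 0.21) in macrophage-only droplets. In all droplets outside the tumor gate, defined with the shares below, Lmo7 stood at 3.56 and 2.48 CPM, from 110 and 74 UMIs, a log2 ratio of -0.53 (-0.97 to -0.09), and inside that gate, where the implanted cells lie, the ratio was -0.29 (-0.43 to -0.16). Lmo7 RNA was thus still counted outside the tumor gate in the library labelled Lmo7-/-, and the sources used here do not say which part of the gene was removed. The deposited libraries held 98582479 UMIs in 16208 droplets and 80648345 UMIs in 15163 droplets, and 279 barcodes occurred in both libraries. Among the members, 2 droplets of the Lmo7+/+ library and 3 of the library labelled Lmo7-/- carried such a shared barcode, or 1.96% and 2.11%, against 1.63% and 2.01% of macrophage-only droplets.

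Droplets with both RNAs were rare in each library. Their share was 0.753% in Lmo7+/+ (interval 0.615 to 0.914) and 1.20% in the library labelled Lmo7-/- (1.01 to 1.41), a difference of 0.444 percentage points (0.203 to 0.694). Both parent gates also took a larger share of the library labelled Lmo7-/-, the C1q gate 44.5% against 35.2% and the T cell gate 6.95% against 4.43%. As a share of the droplets past the C1q gate, members made up 102 of 4762, or 2.14%, and 142 of 5273, or 2.69%, and the interval of this difference included 0 (-0.0546 to 1.15 points). As a share of the droplets past the T cell gate they made up 102 of 600, or 17.0%, and 142 of 824, or 17.2%, a difference of 0.233 points with an interval of -3.79 to 4.14. After thinning of each droplet to 1500 UMIs, these shares of the T cell gate were 9.11% and 10.8%, and with a stricter filter on droplets they were 24.8% and 24.6%. For comparison, the T cell gate was passed by 22 of 4511, or 0.488%, and 25 of 3410, or 0.733%, of tumor-gate droplets with at most 1 C1q UMI. The tumor gate required at least 10 UMIs summed over 12 genes of the MC38 cells, among them Sox9 and Hmga2. These tumor droplets were deeper than those past the C1q gate, with medians of 7742 and 8075.5 UMIs against 5173 and 4533.

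Other T cell genes, which the rule did not use, followed the UMIs of the T cell gate genes. For 11 of them (here the T anchor genes, among them the receptor chain genes Trbc1, Trbc2 and Cd247, the surface protein genes Cd2 and Cd5 and the transcription factor gene Bcl11b), at least 1 UMI was present in 2.16% of Lmo7+/+ droplets past the C1q gate with 0 T cell gate UMIs. The share was 18.8% of the 69 droplets with 1 such UMI, which lie just outside the gate, and 84.0% of the 25 droplets with 2 to 3 UMIs, which lie just inside. It reached 100% of the 34 droplets with 4 to 9 UMIs and of the 43 droplets with at least 10. In the library labelled Lmo7-/- the same shares were 2.70%, 13.5% of 96, 74.4% of 39, 97.7% of 44 and 100% of 59. Most droplets at the lower edge of the gate thus carried further T cell RNA, while most droplets with a single gate UMI did not. The summed level of the T anchor genes climbed from 4.24 and 6.90 CPM with 0 gate UMIs to 603 and 626 CPM with 2 to 3, and to 1602 and 1562 CPM with at least 10.

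**Figure D1:**
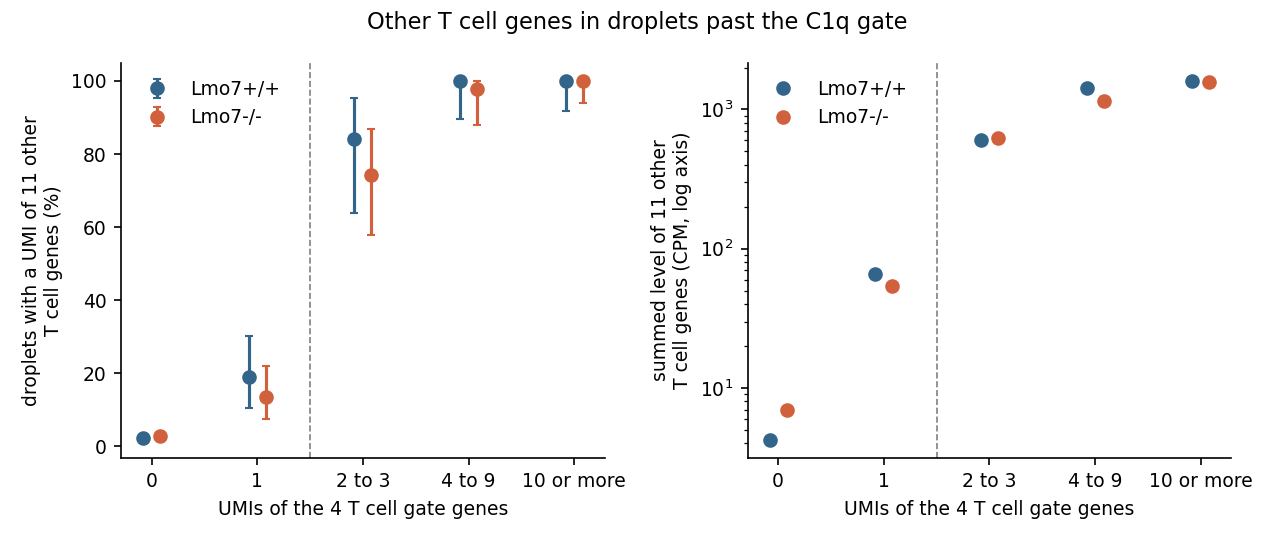
Droplets past the C1q gate by the number of UMIs of the 4 T cell gate genes (horizontal axis), with the percent of droplets that held a UMI of the 11 T anchor genes (left, bars are exact binomial intervals) and the summed CPM of these genes (right, log axis) in each library. The dashed line is the gate. Both measures are far higher to its right, with shares of 84.0% and 74.4% just inside against 18.8% and 13.5% just outside.

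On the macrophage side, droplets just outside the gate outnumbered those just inside it. With 2 to 4 C1q UMIs there were 56 and 45 droplets past the T cell gate, against 22 and 24 members with 5 to 14. Of the 600 Lmo7+/+ droplets past the T cell gate, 339 had 0 C1q UMIs and 103 had 1, only 9 had 4 and only 2 had 5, while 80 of the 102 members had at least 15. In the library labelled Lmo7-/-, 516 of 824 had 0, 121 had 1, 7 had 4 and 4 had 5, and 118 of the 142 members had at least 15. Members carried a median of 48.5 and 49.5 C1q UMIs, close to the medians of 49 in macrophage-only droplets of each library. They carried a median of 7 T cell gate UMIs in each library, against 8.5 and 10 in T-only droplets, which passed the T cell gate with at most 1 C1q UMI.

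Droplets with both RNAs were deeper than those with either alone. The median was 6667 UMIs in the Lmo7+/+ library (quartiles 4430.25 and 9452), against 5136 in its 4591 macrophage-only droplets and 2343.5 in its 442 T-only droplets. In the library labelled Lmo7-/- it was 6802.5 (quartiles 4435 and 9117.75), against 4479 in 5035 macrophage-only and 2327 in 637 T-only droplets. The quartile ranges of members and macrophage-only droplets overlapped. Members thus held 1.30 and 1.52 times the UMIs of macrophage-only droplets, and their median was 0.891 and 0.999 times the sum of the T-only and macrophage-only medians. Gates on raw UMIs are passed more easily by deep droplets. When each droplet was thinned to 1500 UMIs, which left 11648 and 10252 droplets, 36 and 59 still passed both gates, or 0.309% and 0.575%. The median share of mitochondrial UMIs was 5.74% and 5.404% in members, 5.78% and 5.49% in macrophage-only droplets and 5.23% and 5.27% in T-only droplets.

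**Figure D2:**
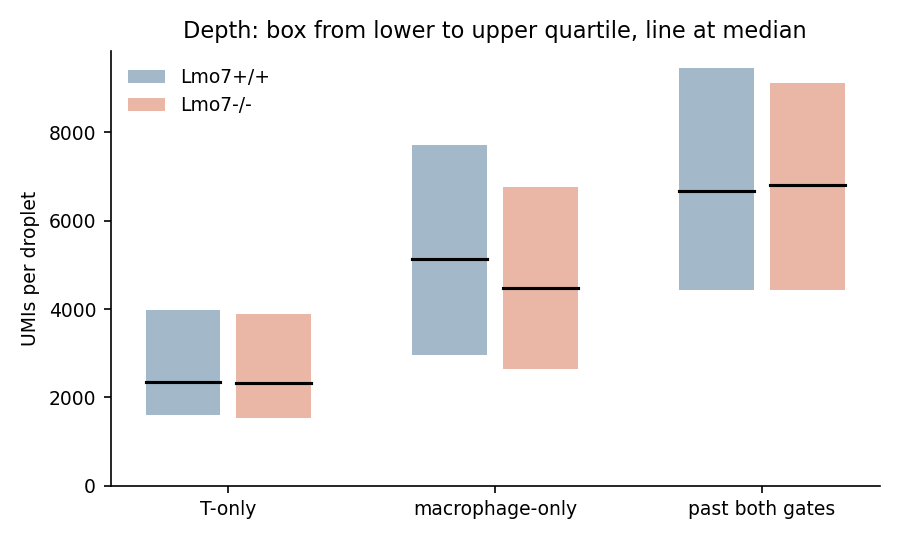
UMIs per droplet (vertical axis) in T-only droplets, macrophage-only droplets and droplets past both gates of each library. Boxes run from the lower to the upper quartile with a line at the median, which lies highest in droplets past both gates, at 6667 and 6802.5 UMIs.

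Scrublet, a program that scores each droplet by its likeness to simulated pairs of droplets, marked few of the members. Among Lmo7+/+ members 6 of 102 were marked, a share of 5.88% (interval 2.19 to 12.4). Among members labelled Lmo7-/- 17 of 142 were marked, a share of 11.97% (7.13 to 18.5). It marked 6.06% and 4.61% of macrophage-only droplets, 2.71% and 2.98% of T-only droplets and 2.90% and 2.60% of all droplets. The median score was 0.11 and 0.139 in members, against 0.044 and 0.0436 in macrophage-only droplets. No droplet was removed on this score.

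Passing both gates was less frequent than the product of the 2 gates' shares, and the ratio of the T cell and macrophage pair lay above those of the T cell and tumor pair and of the macrophage and tumor pair, but, with all UMIs, not above those of pairs with the endothelial gate. In the Lmo7+/+ library, 102 droplets passed both gates against 211 from the product of the shares, a ratio of 0.483 (interval 0.394 to 0.587). In the library labelled Lmo7-/- the ratio was 0.388 (0.326 to 0.457). T cell and tumor gates gave ratios of 0.147 (0.104 to 0.201, 39 droplets) and 0.141 (0.102 to 0.190, 43 droplets), and macrophage and tumor gates gave 0.219 (0.199 to 0.240) and 0.231 (0.210 to 0.253). The intervals of the T cell and macrophage pair overlapped neither of these in either library. Pairs with the endothelial gate, which 115 and 104 droplets passed, gave higher ratios. Macrophage and endothelial gates gave 0.643 (0.420 to 0.942, 26 droplets) and 0.865 (0.618 to 1.18, 40 droplets). T cell and endothelial gates gave 0.589 (0.121 to 1.72) and 0.830 (0.305 to 1.81) from 3 and 6 droplets, and tumor and endothelial gates gave 1.06 (0.797 to 1.38) and 1.09 (0.785 to 1.47). After thinning to 1500 UMIs the tumor gate required at least 5 UMIs, while the other gates kept their minimums. The T cell and macrophage ratio was then 0.272 and 0.251 and the T cell and tumor ratio 0.0543 and 0.0723. The macrophage and endothelial pair was left with 4 droplets and 1 droplet, and the tumor and endothelial ratio was 1.14 and 1.35. The gates have different UMI minimums and the cell types different depths, and their part in these ratios was not tested.

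**Figure D3:**
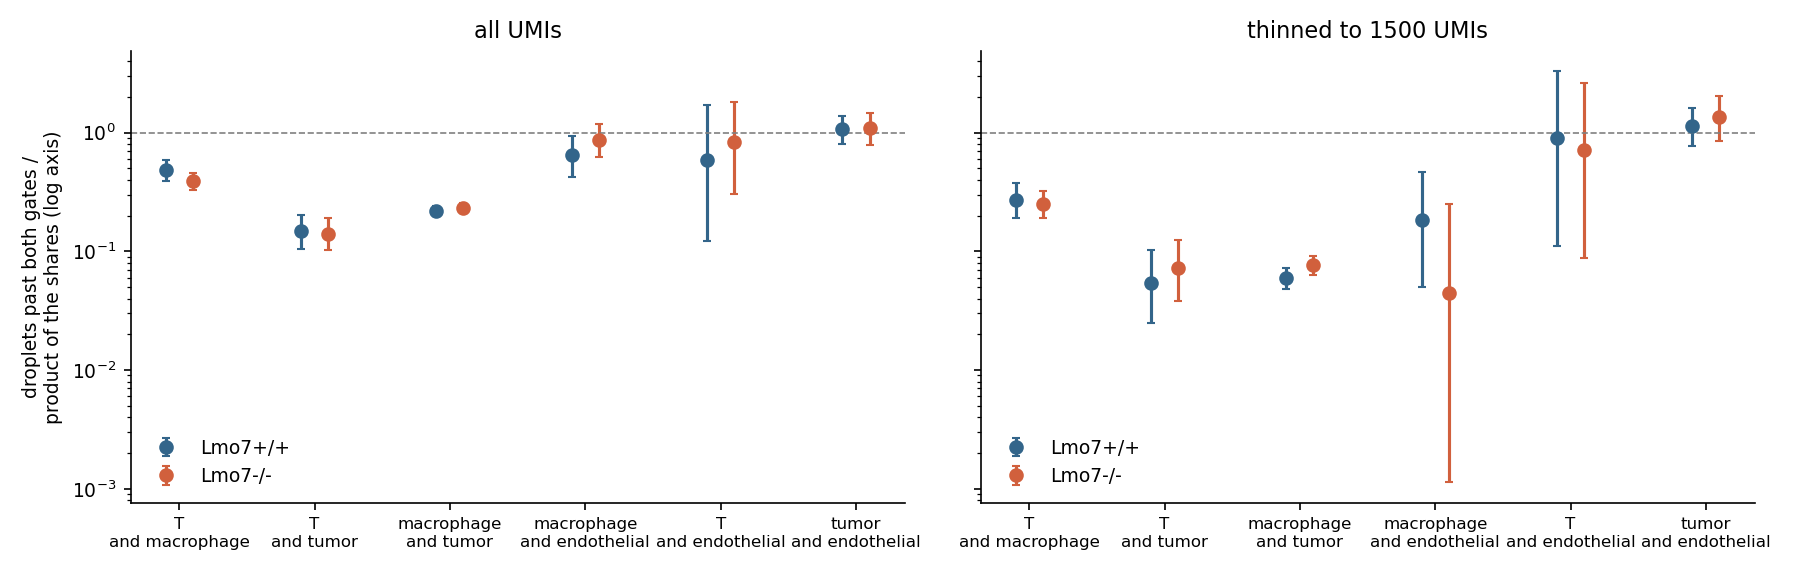
Number of droplets past 2 gates at once divided by the number from the product of the gates' shares (vertical log axis) for 6 pairs of gates in each library, with all UMIs (left) and after thinning to 1500 UMIs (right). After thinning the tumor gate required at least 5 UMIs. Bars are exact Poisson intervals and the dashed line marks a ratio of 1. The T cell and macrophage pair, at 0.483 and 0.388 with all UMIs and at 0.272 and 0.251 after thinning, lies above the T cell and tumor and the macrophage and tumor pairs, while the tumor and endothelial pair lies highest in each library with all UMIs, at 1.06 and 1.09.

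The RNA of the members was close to a mix of both cell types. The T anchor genes stood at 1358 and 1272 CPM in members, against 3242 and 3520 CPM in T-only droplets and 4.24 and 6.90 CPM in macrophage-only droplets, which placed the T cell part of the RNA of Lmo7+/+ members at 41.8% (interval 39.3 to 44.4). For members labelled Lmo7-/- it came to 36.0% (34.1 to 38.0). From 9 macrophage genes outside the gate, the M anchor genes (mostly macrophage surface receptors, among them Adgre1, Csf1r, Mrc1 and Cx3cr1), the T cell part came to 33.3% and 32.7%. By nonnegative least squares over all genes outside the gates, the T cell part came to 27.6% and 30.5%, so it depended on the method. T cells held 31.3% and 34.2% of the summed median UMIs of both reference classes. All 13 T cell markers and all 14 macrophage markers outside the gates had UMIs in members of each library. Adgre1, which encodes the macrophage marker F4/80, had a UMI in 60 of 102 and 93 of 142 members, and Trbc2, a constant region of the receptor's beta chain, in 84 and 106.

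Each gene was then set against a mix of the T-only and macrophage-only profiles of its own library, weighted by the T cell part from the T anchor genes. Over 8591 genes with at least 20 counts observed or predicted, the median log2 ratio of observed to mixed level was -0.04 and -0.02, and 95.7% and 98.6% of genes lay within 2-fold. Past 2-fold in the same direction in both libraries, 0% of genes were higher and 0.279% were lower, which is 24 genes. Retnla, which encodes a secreted protein of alternatively activated macrophages, was the lowest of those with at least 50 counts. It had 0 UMIs in Lmo7+/+ members where the mix gave 15.8, and 2 UMIs in members of the library labelled Lmo7-/- where the mix gave 93.9, a log2 ratio of -5.55 (-8.60 to -3.70). Postn, which encodes the matrix protein periostin, had 7 against 32.1 and 8 against 18.3 UMIs. Serpine2, a protease inhibitor, had 11 against 33.1 and 25 against 54.7. Gzme, a granzyme, had 3 against 7.82 and 27 against 68.8, and the interval of its first ratio included 0. Retnla was thus near 0 in members of both libraries although their macrophage-only droplets held it at 34.4 and 137 CPM.

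On the T cell side, most members carried CD8 RNA. A UMI of Cd8a or Cd8b1, the CD8 coreceptor chains, without Cd4 was present in 68 of 102 members, or 66.7%, and 90 of 142, or 63.4%, against 66.1% and 73.6% of T-only droplets and any Cd8a or Cd8b1 UMI in 0.392% and 0.556% of macrophage-only droplets. Cd4 without CD8 was present in 11 and 16 members, but Cd4 UMIs also occurred in 6.62% and 5.84% of macrophage-only droplets, so a Cd4 UMI alone did not mark the T cell. These shares are not thinned and members are deeper than T-only droplets, so levels were also taken per 100 UMIs of the T anchor genes, which compares the T cell part alone. Cd8a stood at 24.4 and 26.8 in members against 22.1 and 24.2 in T-only droplets, a log2 ratio of 0.15 (-0.05 to 0.34) and 0.15 (-0.02 to 0.31). Among 39 listed genes whose macrophage-only level was at most 5% of their T-only level, 0 were higher and 4 were lower in members with an interval that excluded 0 in both libraries. Over all 259 genes that met the same limit, 0.386% were higher and 4.25% were lower by that rule.

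The 4 lower genes were Ikzf2, Tnfrsf4, Ccr7 and Gzmd. Ikzf2 encodes Helios, a transcription factor abundant in regulatory T cells, and stood at 3.96 and 3.17 per 100 anchor UMIs in members against 8.34 and 5.03 in T-only droplets, a log2 ratio of -1.08 (-1.57 to -0.62) and -0.67 (-1.16 to -0.21). Tnfrsf4, the costimulatory receptor OX40, had a log2 ratio of -0.67 (-1.15 to -0.22) and -0.54 (-0.95 to -0.16). Ccr7, the receptor that guides naive T cells and mature dendritic cells to lymph nodes, had -0.66 (-1.10 to -0.25) and -0.70 (-1.11 to -0.31). Gzmd, a granzyme, was at 0 UMIs against 0.427 per 100 anchor UMIs in the Lmo7+/+ library and at 3.98 against 5.996 in the library labelled Lmo7-/-. Foxp3, the defining factor of regulatory T cells, had a UMI in 4 of 102 and 6 of 142 members and in 49 of 442 and 58 of 637 T-only droplets. Its level per 100 anchor UMIs was 0.943 and 1.25 in members against 2.54 and 2.02, a log2 ratio of -1.43 (-2.52 to -0.51) and -0.69 (-1.51 to 0.04), so the second interval included 0. Icos, a costimulatory receptor of activated and regulatory T cells, was also below its T-only level, with log2 ratios of -0.40 (-0.65 to -0.17) and -0.12 (-0.28 to 0.04), and the second interval again included 0. The point estimates of 3 other markers of these cells were not below 0 in both libraries. Ctla4, an inhibitory receptor, had log2 ratios of 0.25 (-0.15 to 0.62) and 0.14 (-0.16 to 0.44), Tnfrsf18, the receptor GITR, 0.26 (-0.07 to 0.58) and -0.20 (-0.50 to 0.10), and Il2ra, a chain of the interleukin 2 receptor, -0.85 (-1.31 to -0.42) and 0.03 (-0.29 to 0.34). Gzmb, the granzyme that triggers death of target cells, stood at 22.8 and 49.2 against 25.9 and 52.7, and Pdcd1, which encodes the inhibitory receptor PD-1, at 9.90 and 14.9 against 11.5 and 13.9, both with intervals that included 0.

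Lists of T cell genes were also set against the mix. The list of 4 gamma delta T cell genes was lower, with 16 and 5 UMIs in all. The log2 ratios of its sums were -1.40 (-2.21 to -0.70) and -1.29 (-2.91 to -0.06). Its Il17a and Cd163l1 were at 0 in members of both libraries, where the mix gave 12.8 and 4.93 UMIs in Lmo7+/+. In the library labelled Lmo7-/- the mix gave only 1.99 and 1.65 UMIs, too few for a count of 0 to show a difference. All 5 UMIs of the list in that library were of Trdc and lay in 1 droplet, against 4.21 Trdc UMIs in the mix. The 7 genes of naive or memory T cells had -0.45 (-0.66 to -0.24) and -0.56 (-0.76 to -0.38). The 8 genes of CD4 and regulatory T cells had -0.38 (-0.51 to -0.26) and -0.12 (-0.21 to -0.02), which turned to 0.19 and 0.11 with the T cell part by nonnegative least squares. The 13 cytotoxic effector genes had 0.03 (-0.05 to 0.11) and -0.04 (-0.09 to 0.02), and the 8 checkpoint receptors -0.05 (-0.19 to 0.09) and 0.04 (-0.07 to 0.14). With the lower T cell part from the M anchor genes, the cytotoxic list had 0.33 and 0.08 and the checkpoint receptors 0.13 and 0.11, while the lists of gamma delta T cells, at -1.07 and -1.15, and of naive or memory T cells, at -0.27 and -0.49, stayed below the mix. The 12 dendritic cell genes, which include Ccr7, had -0.68 (-0.89 to -0.48) and -0.39 (-0.57 to -0.22). Fscn1, which bundles actin in mature dendritic cells, gave 38.9% and 38.0% of that list's UMIs, and 4 and 2 of the 12 genes were at 0. Ccr7, which T cells express as well, gave 261 of the list's 679 CPM in T-only droplets of the Lmo7+/+ library and 252 of 531 CPM in those of the library labelled Lmo7-/-. Xcr1, a receptor of cross-presenting dendritic cells, stood at 12.6 and 4.71 CPM in T-only droplets against 15.5 and 51.0 CPM in macrophage-only droplets.

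**Figure D4:**
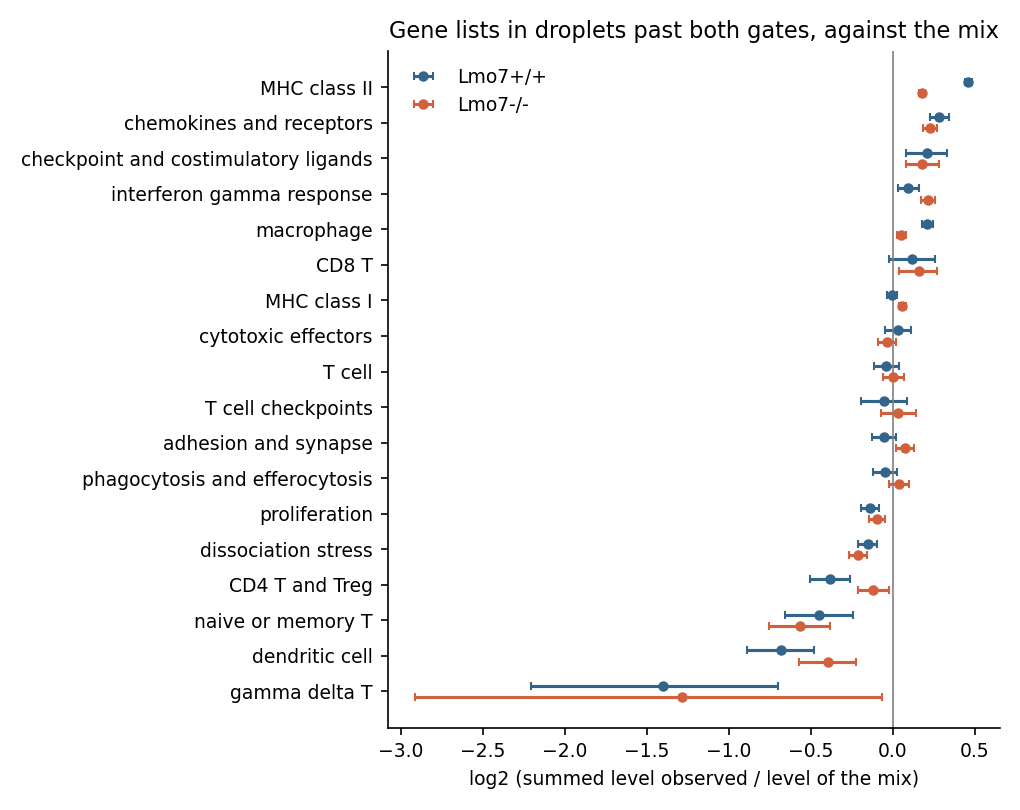
Log2 ratio of the summed level of 18 gene lists in droplets past both gates to the level of the mix (horizontal axis), with exact Poisson intervals, in each library. Lists of gamma delta, naive or memory, CD4 and regulatory T cells, dendritic cells, proliferation and dissociation stress lie below 0 in both libraries. MHC class II, chemokines, ligands, the interferon gamma response and macrophage markers (0.21 and 0.05) lie above 0. The intervals of cytotoxic effectors and checkpoint receptors include 0.

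On the macrophage side, MHC class II genes were above the mix, and MHC class I genes were close to it. The 7 MHC class II genes, which present antigen to CD4 T cells, had a log2 ratio of their sums of 0.46 (0.44 to 0.48) in the Lmo7+/+ library and 0.18 (0.16 to 0.20) in the library labelled Lmo7-/-. The 9 genes of MHC class I presentation, which T cells express as well, had -0.00 (-0.03 to 0.02) and 0.06 (0.04 to 0.08). The 14 macrophage markers outside the gates were also above the mix, at 0.21 (0.18 to 0.24) and 0.05 (0.03 to 0.08). With the T cell part from the M anchor genes they had 0.03 and -0.02, against 0.30 and 0.11 for MHC class II. The mix depends on the T cell part, so genes were also taken per 100 UMIs of the M anchor genes. Of 33 listed genes whose T-only level was at most 10% of their macrophage-only level, 4 were higher and 3 were lower in members with an interval that excluded 0 in both libraries. Over all 640 genes that met the same limit, 1.25% were higher and 1.41% were lower, and this rule also calls small differences of abundant genes, whose intervals are narrow. Of the 640, 302 had 0 UMIs in members of at least 1 library and were set at 3 counts there, and with these bounds the median log2 ratio was 0.93 and 0.55. Over the 249 genes for which the macrophage-only level predicted at least 5 UMIs in members of each library, the median was 0.08 and -0.03. Higher were H2-Eb1, an MHC class II chain, at 190 and 210 against 154 and 199 in macrophage-only droplets, and Cd74, the class II chaperone, at 115 and 150 against 97.5 and 139. Cxcl9, the interferon-induced chemokine that attracts activated T cells, stood at 22.6 and 45.6 against 19.1 and 38.4, a log2 ratio of 0.24 (0.09 to 0.38) and 0.25 (0.17 to 0.33). Il1b, which encodes the inflammatory cytokine interleukin 1 beta, had 0.34 (0.27 to 0.40) and 0.06 (0.01 to 0.12). The log2 ratios of these 4 genes were at most 0.34. Lower were Retnla, described above, Folr2, a folate receptor of resident macrophages, with 1 UMI in members of each library, and Apoe, which encodes the lipid carrier apolipoprotein E, with -0.10 (-0.17 to -0.02) and -0.20 (-0.25 to -0.14).

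Genes through which T cells and macrophages contact each other were described against the same mix. The 12 checkpoint and costimulatory ligands had a log2 ratio of 0.21 (0.08 to 0.33) and 0.18 (0.08 to 0.28). The ratio was 0.13 and 0.14 with the T cell part from the M anchor genes, and 0.07 and 0.12 with that from nonnegative least squares. Past 2-fold, the list had 0 of 9 compared genes in both libraries, against 0% higher and 0.279% lower among all genes. Cd274, which encodes the PD-1 ligand PD-L1, stood at 115 (92.6 to 142) and 206 CPM (180 to 235) in members against 91.7 and 185 CPM in the mix. Cd86, the ligand of CD28 and CTLA-4, stood at 106 (84.6 to 132) and 141 (119 to 165) against 84.9 and 107. The second interval of Cd274 and the first of Cd86 thus included the mix. Of the same list, Tnfsf9, at 20.5 and 20.6 against 25.1 and 21.5, lay below the mix in both libraries. So did Tnfsf4, at 2.56 and 3.75 against 7.93 and 8.03, and the intervals of both genes included the mix. The 12 adhesion and synapse genes, such as Itgal, Itgb2 and Icam1 for LFA-1 and its ligand, had -0.05 (-0.13 to 0.02) and 0.08 (0.02 to 0.13). Cxcl16, a chemokine ligand of macrophages, stood at 447 and 544 CPM against 366 and 448 in the mix, and its receptor Cxcr6, on the T cell side, at 116 and 174 against 109 and 135. Per 100 UMIs of the M anchor genes, the log2 ratio of Cxcl16 to macrophage-only droplets was 0.12 (-0.04 to 0.27) and 0.20 (0.08 to 0.32). Per 100 UMIs of the T anchor genes, that of Cxcr6 to T-only droplets was 0.10 (-0.25 to 0.43) and 0.36 (0.13 to 0.60). Both intervals of the Lmo7+/+ library thus included 0. The 16 genes of phagocytosis and efferocytosis, the uptake of dead cells, had -0.05 (-0.12 to 0.03) and 0.04 (-0.02 to 0.10).

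Markers of other cells were counted in the same way. Of the 9 tumor cell markers, 6 and 5 were at 0, with 8 and 7 UMIs in all, and the tumor gate was passed by 7 of 102 members, or 6.86%, and 12 of 142, or 8.45%, against 9.67% and 8.24% of macrophage-only droplets. All 5 mast cell markers were at 0. The 7 B cell markers had 93 and 68 UMIs, of which Ighm gave 91.4% and 92.6%, and 4 of the 7 were at 0 in each library. Their log2 ratio to the mix was 0.54 (0.24 to 0.84) and -0.21 (-0.58 to 0.13). The 8 endothelial markers had 83 and 64 UMIs, at 106 and 60.0 CPM, with log2 ratios of 0.47 (0.14 to 0.78) and -0.42 (-0.80 to -0.07). Pecam1 was their most abundant gene in each library, and 0 and 5 of the 8 were at 0. In the Lmo7+/+ library 1 droplet held 62 of the 83 endothelial UMIs, and without it the level was 27.2 CPM. The 8 fibroblast genes parted the libraries, at 93.4 CPM in Lmo7+/+ members and 669 CPM in members of the library labelled Lmo7-/-. There, 1 droplet held 450 of the 713 fibroblast UMIs, among them 128 of 203 for Col1a1 and 169 of 230 for Col3a1, and without it the level was 250 CPM. Fibroblast genes stood at 721 and 484 CPM in T-only droplets and at 448 and 454 CPM in macrophage-only droplets, and their part in the Postn and Serpine2 values above was not tested. The 11 genes of the stress response to tissue dissociation had log2 ratios to the mix of -0.15 (-0.21 to -0.09) and -0.21 (-0.27 to -0.15), with Junb the most abundant.

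Between the libraries, members were compared over 8215 genes with at least 20 counts, with a median log2 ratio of -0.03. In members of the library labelled Lmo7-/-, 4 of 14 genes of the interferon gamma response, which macrophages switch on when T cells release this cytokine, and 5 of 7 granzymes were higher past 2-fold. Of all genes, 3.26% were higher and 2% were lower past 2-fold in that library. The interferon gamma response genes, of which 0 were lower past 2-fold, had a median log2 ratio of 0.77, and the median was also 0.77 in macrophage-only droplets. Cxcl9 had 397 and 1192 UMIs, or 508 and 1118 CPM, a log2 ratio of 1.14 (0.97 to 1.31) against 1.11 in macrophage-only droplets. With at least 4 T cell gate UMIs its log2 ratio was 0.96, below 2-fold. Nos2, the inducible nitric oxide synthase, had 6 and 94 UMIs, a log2 ratio of 3.52 (2.35 to 5.00) against 1.86. Gbp2, an interferon-induced GTPase, had 72 and 325 UMIs, a log2 ratio of 1.73 (1.35 to 2.11) against 0.83, and Gbp4, another, had 34 and 93 UMIs, a log2 ratio of 1.00 (0.42 to 1.61) against 1.11, which placed it at the 2-fold limit itself. Gbp2 and Nos2 thus differed more between the libraries in members than in macrophage-only droplets, and that excess was not tested.

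Of 13 cytotoxic effector genes, 5 were higher and 0 lower past 2-fold, with a median log2 ratio of 0.41 against 0.64 in T-only droplets. Gzmb had 242 and 668 UMIs, or 310 and 626 CPM, a log2 ratio of 1.02 (0.80 to 1.23) against 1.14 in T-only droplets. Gzmf had 35 and 313 UMIs, a log2 ratio of 2.71 (2.21 to 3.26) against 1.81, with 21 of the 35 and 90 of the 313 in 1 droplet each. These UMIs lay in only 4 members of the Lmo7+/+ library and in 21 of the library labelled Lmo7-/-. Without the droplet with most of its UMIs in each library the log2 ratio of Gzmf was 3.55. It was 3.49 with mean CPM per droplet and 2.53 with at least 4 T cell gate UMIs. Gzmc, Gzme and Gzmd completed the group, with 15 and 65, 3 and 27, and 0 and 54 UMIs. In members they stood at 19.2 and 60.9, 3.84 and 25.3, and 0 and 50.6 CPM. In T-only droplets, where they were also higher in the library labelled Lmo7-/-, they stood at 71.1 and 333, 23.9 and 179, and 13.8 and 211 CPM. In the library labelled Lmo7-/-, 15 of the 27 Gzme UMIs and 24 of the 54 Gzmd UMIs lay in 1 droplet each. Without the top droplet the log2 ratio of Gzmd, a lower bound, moved from 3.72 to 2.87. Gzma and Gzmk were not past 2-fold, at 20.5 and 25.3 CPM and at 15.4 and 10.3 CPM, with intervals of the log2 ratio that included 0. The granzymes c to f are related genes, and how reads were assigned among them was not tested. Prf1, the pore-forming perforin, stood at 90.8 and 117 CPM and Ifng, the cytokine interferon gamma, at 30.7 and 32.8 CPM, with intervals of the log2 ratio that included 0 (-0.06 to 0.81 and -0.69 to 0.91). The log2 ratio of Ifng was 0.10, and it turned to -0.70 with the mean CPM per droplet. Cd8a did not differ beyond counting error, at 331 and 341 CPM (log2 ratio 0.04, -0.19 to 0.28).

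**Figure D5:**
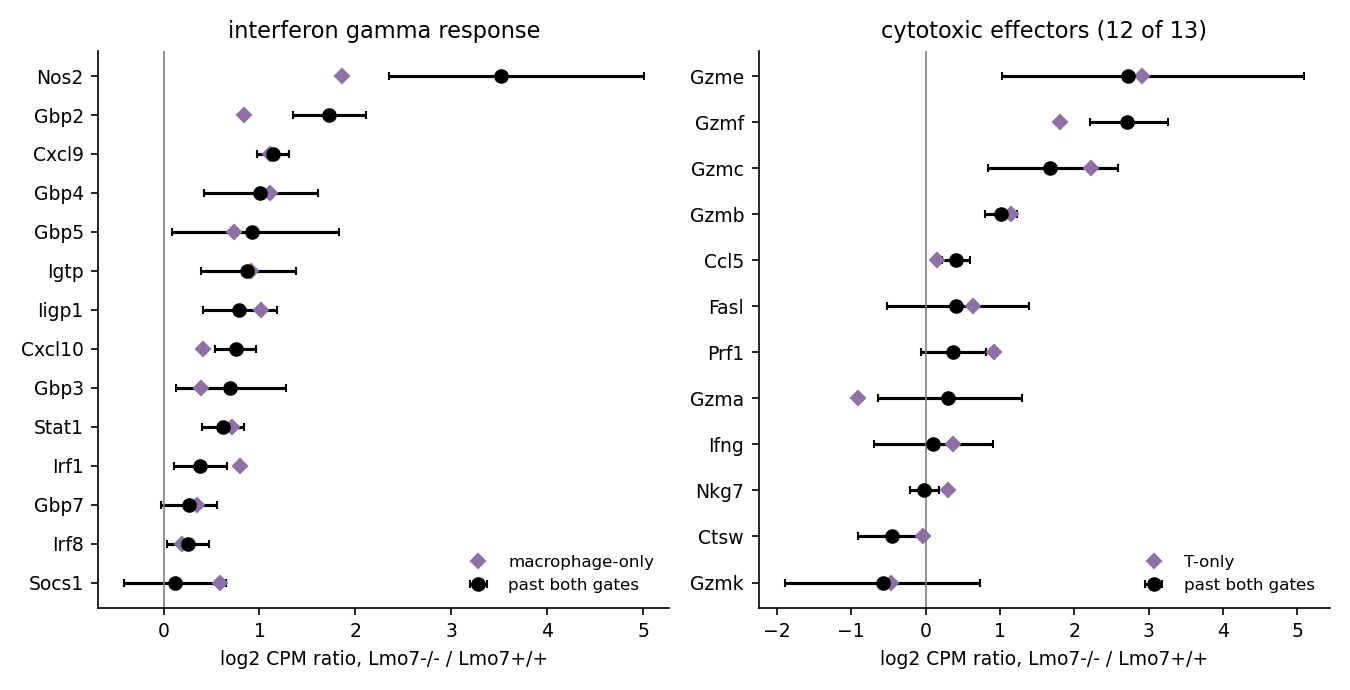
Log2 ratio of CPM, library labelled Lmo7-/- over Lmo7+/+ (horizontal axis), of interferon gamma response genes (left) and cytotoxic effector genes (right, without Gzmd, which had 0 UMIs in the Lmo7+/+ members) in droplets past both gates (black, bars are exact binomial intervals) and in the reference class (diamonds). Cxcl9 at 1.14 and Gzmb at 1.02 lie near their reference class at 1.11 and 1.14, while Nos2, Gbp2 and Gzmf lie to the right of it.

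Macrophage genes outside the interferon list also differed. Ccl8, a monocyte chemokine, had 31 and 272 UMIs, a log2 ratio of 2.68 (2.15 to 3.27) against 1.31 in macrophage-only droplets. Of these UMIs, 13 of the 31 and 66 of the 272 lay in 1 droplet each. The log2 ratio of Ccl8 was 3.07 without the droplet with most of its UMIs in each library. It was 3.28 with at least 4 T cell gate UMIs and 2.22 with mean CPM per droplet. The MHC class II genes were higher by a log2 ratio of 0.29 of their sums (0.26 to 0.32), with a median over genes of 0.26 against 0.46 in macrophage-only droplets, and 0 of 7 were past 2-fold. The 10 type I interferon response genes had a median of -0.72 against -0.20 in macrophage-only droplets, with 2 of 10 lower past 2-fold, Rsad2 and Cmpk2. Rsad2, which encodes the antiviral protein viperin, had 151 and 75 UMIs, but 113 of the 151 lay in 1 droplet, and Cmpk2 had 27 and 14 UMIs with 19 of the 27 in 1 droplet. A single Lmo7+/+ droplet held 242 of the 866 UMIs of the list, and without the droplet with most of them in each library the median was -0.13 and 0 of 10 genes were lower past 2-fold.

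The largest ratios among genes with at least 50 counts often rested on single droplets. Igfbp3, which binds insulin-like growth factors, had 130 UMIs in Lmo7+/+ members, all in 1 droplet, and 0 in the library labelled Lmo7-/-. Serping1, the C1 inhibitor, had 1 and 60 UMIs with 59 in 1 droplet, Tnfaip6 3 and 74 with 61 in 1 droplet, and Col1a2, a collagen chain, 10 and 173 with 105 in 1 droplet, which for these 3 genes was the droplet with most fibroblast UMIs. Gzmd, described above, completed the 5 highest with Gm42031, a predicted gene that had 2 and 53 UMIs with at most 4 in 1 droplet, a log2 ratio of 4.28 (2.36 to 7.36) against 3.10 in macrophage-only and 3.41 in T-only droplets. Lower, spread over droplets, were Pgf, which encodes placental growth factor, with 67 and 12 UMIs and a log2 ratio of -2.93 (-3.95 to -2.03) against -0.81 in macrophage-only droplets, Egr2, a transcription factor induced by receptor signalling, with 38 and 18, and Gm26917, a predicted gene, with 44 and 22.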

How the data were processed

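The authors deposited raw UMI counts per gene and droplet for 2 libraries of sorted live tumor cells, with no normalization. The submitters' processing notes name Cell Ranger 2.1.1 and mm10, while the count files name software version 3.0.0. The labels name the 10x Chromium platform, and the barcodes have 24 bases in 3 blocks of 8. The study's methods name no doublet step, and no doublets were removed here.

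Droplets were filtered, gated and summed per class and library as described in the text, and summed counts were given as CPM. Depth was 4535.5 and 4304.5 UMIs per droplet at the median. Shares have Clopper-Pearson intervals, share differences Newcombe intervals, counts and ratios to the mix or to the product of shares exact Poisson intervals, and ratios of CPM exact binomial intervals, all at 95% and for counting error only. A gene with 0 counts was compared at a floor of 3 counts per library, and its ratio is a bound. Genes past 2-fold were counted among genes with at least 20 counts, without gate genes. With 1 library per genotype no test was made, since cells are not replicates.

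Members and gene lists were chosen with earlier results of these data known. The named genes were the gate genes, the genes of 37 lists, up to 10 genes each way off the mix and 5 each way between the libraries among genes of 50 counts or more, mitochondrial and ribosomal protein genes left out. Some listed genes are not reported by name here. The tumor gate (12 genes, at least 10 UMIs, or at least 5 after thinning) replaced a gate on 4 keratins, which 9 and 2 droplets passed, and was set after the data were seen, as were the levels per anchor gene and their limits. The endothelial gate required 4 UMIs over 5 genes. Alternatives were other filters, gates, T cell parts, reference droplets, count minimums, scalings and thinning. The steps were tested on simulated data. Scrublet was run per library in scanpy 1.11.5, TMM factors came from edgeR 4.0.16 (R 4.3.3), and other steps used scipy 1.17.1, pandas 2.3.3 and numpy 2.4.6 under Python 3.11.15.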

Additional observations from a re-analysis of the deposited data

Results flagged for a closer look

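Droplets outside the filters on genes, UMIs and mitochondrial share were in no comparison, and some of them also passed both gates. In Lmo7+/+ they numbered 3 among 2666 droplets, and in the library labelled Lmo7-/- 6 among 3303. These are 0.113% and 0.182%, below the shares among the droplets kept.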

How the results depend on the processing

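The share of droplets past both gates was 0.989% under the lenient filter in the library labelled Lmo7-/-, 1.02% and 1.52% under the strict filter, 0.569% and 0.868% with at least 4 T cell gate UMIs, 0.309% and 0.575% after thinning, and 1.26% and 1.74% without tumor-gate droplets, an alternative chosen after seeing the data. The library labelled Lmo7-/- was higher under each of these. The ratio to the product of the shares was 0.272 and 0.251 after thinning, and 0.322 in the library labelled Lmo7-/- with at least 4 T cell gate UMIs. The T cell part was 44.4% and 38.6% with at least 4 T cell gate UMIs, 33.3% and 32.7% from the M anchor genes, 27.6% and 30.5% by nonnegative least squares over all genes outside the gates, and 38.2% in the Lmo7+/+ library with T-only droplets of 0 C1q UMIs. With least squares the cytotoxic list lay at 0.57 and 0.16 above the mix on the log2 scale and the CD4 and regulatory T cell list changed direction, from -0.38 and -0.12 to 0.19 and 0.11, while MHC class II stayed above, at 0.19 and 0.07, and gamma delta T cell genes below, at -0.80 and -1.05. Genes lower than the mix in both libraries numbered 4 with at least 50 counts, where fewer genes were compared, and 108 without the droplet with most UMIs of each gene, a step that lowers every observed count and was also chosen later. Genes higher than the mix in both numbered 1 with least squares and 1 with mean CPM per droplet. Between the libraries, 268 genes were higher and 164 lower past 2-fold in the main run, and 80 and 34 with at least 50 counts. With mean CPM per droplet 377 were higher and 290 lower, and under the strict filter 210 were higher and 203 lower. Without its top droplet in each library, Rsad2 changed direction to a log2 ratio of 0.28, and with mean CPM per droplet Ifng turned to -0.70 and Cd8a to -0.07. Leaving out the droplet with most UMIs of a list in each library, also chosen later, moved the median of the type I interferon response genes from -0.72 to -0.13. Of 62 values from alternatives, 36 stayed within the interval or within 1.5 times the count. No paired analysis was possible because each genotype has 1 library. The 244 droplets limit these values, since genes with few UMIs have wide intervals.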
